A study of Homo sapiens with 24 samples.

Results

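Many microRNAs are encoded within protein-coding genes, and 39 such host genes, of the 60605 genes in the count files, are described here. The members are protein-coding genes with a microRNA in an intron or exon, taken by gene symbol as a fixed list that includes AOPEP, formerly C9orf3. Measured RNA was poly(A)-selected RNA from SBC-3, an established line of human small cell lung carcinoma, labelled wild type. Cells received small interfering RNAs (siRNAs) against SFPQ (siSFPQ-2 or siSFPQ-3) or against NONO (siNONO-3 or siNONO-4), or a control siRNA (siCtrl). Other cells received antisense oligonucleotides (ASOs) against NEAT1 (ASO-NEAT1-1047 or ASO-NEAT1-1473) or a control ASO (ASO-Ctrl). Every reagent was used at 10 nM by reverse transfection, RNA was taken at 72 h, and each of the 8 groups had 3 libraries. The labels name no separate cultures, so each p-value covers the spread among libraries of a group, which may be technical.

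A host gene and a microRNA in its intron on the same strand can share a primary transcript, from which the nuclear enzyme Drosha with its partner DGCR8 cuts the hairpin precursor while the host introns are spliced. The seed at the 5′ end of the mature microRNA pairs with target mRNAs, so microRNAs with the same seed form a family, and several families are carried by paralogous hosts. SFPQ and NONO are RNA- and DNA-binding proteins of the DBHS family, and NEAT1 is the long noncoding RNA around which paraspeckles, nuclear bodies that hold both proteins, are built. The study addressed what these factors do in making microRNAs in the nucleus. Only the host mRNA side of that question was measured in these libraries.

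The list pairs the 39 hosts with 52 microRNA genes. Mature sequences from RefSeq (GRCh38.p14) matched 51 of the microRNA genes in 38 hosts, 92 sequences in all, and 10 seeds were shared by microRNAs of 2 or more hosts. Shown first are microRNAs of hosts that changed at least 2-fold after SFPQ knockdown, and then microRNAs grouped by a shared seed, with miR-214 beside miR-199a. Sequences run 5′ to 3′, and capitals mark the seed, bases 2 to 8.
hsa-miR-28-3p: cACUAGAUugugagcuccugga
hsa-miR-190a-5p: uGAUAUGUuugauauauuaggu
hsa-miR-342-3p: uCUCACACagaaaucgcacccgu
hsa-miR-708-5p: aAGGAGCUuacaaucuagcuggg
hsa-miR-21-5p: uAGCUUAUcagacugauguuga
hsa-miR-378a-3p: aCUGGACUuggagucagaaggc
hsa-miR-2277-5p: aGCGCGGGcugagcgcugccaguc
hsa-miR-340-5p: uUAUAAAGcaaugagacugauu
hsa-miR-23b-3p: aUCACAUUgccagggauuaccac
hsa-miR-27b-3p: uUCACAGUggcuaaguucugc
hsa-miR-24-3p: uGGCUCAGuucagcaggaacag
hsa-miR-139-5p: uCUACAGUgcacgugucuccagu
hsa-miR-199a-3p: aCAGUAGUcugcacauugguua
hsa-miR-214-3p: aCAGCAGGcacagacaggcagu
hsa-miR-148b-3p: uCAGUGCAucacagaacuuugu
hsa-miR-152-3p: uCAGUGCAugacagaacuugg
hsa-miR-26a-5p: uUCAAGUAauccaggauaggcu
hsa-miR-26b-5p: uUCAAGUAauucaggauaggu
hsa-miR-107: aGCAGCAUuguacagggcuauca
hsa-miR-103a-3p: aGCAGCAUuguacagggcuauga
hsa-miR-301a-3p: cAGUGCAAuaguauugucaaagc
hsa-miR-454-3p: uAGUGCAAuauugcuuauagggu
hsa-miR-128-3p: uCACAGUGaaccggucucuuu
In this order they lie in LPP, TLN2, EVL, TENM4, VMP1, PPARGC1B, FAM172A, RNF130, AOPEP (miR-23b, miR-27b and miR-24) and PDE2A, followed by the seed groups. The seed UCAAGUA belongs to miR-26a and miR-26b, carried by CTDSPL, CTDSP2 and CTDSP1. GCAGCAU belongs to miR-107 in PANK1 and to miR-103a in PANK2 and PANK3. CAGUAGU belongs to miR-199a-3p and miR-199b-3p within DNM1, DNM2 and DNM3, AGUGCAA to miR-301a and miR-454, both in SKA2, CACAGUG to miR-128 in R3HDM1 and ARPP21, and CAGUGCA to miR-148b in COPZ1 and miR-152 in COPZ2. Each of the 52 microRNA genes lies inside the span of its host, 49 in an intron and 3 in an exon of the count files' annotation. The 3 exonic ones are miR-21, 134.1 kb into VMP1, miR-2277, 490.9 kb into FAM172A, and miR-24-1, 359.3 kb into AOPEP. On the host strand are 46 of the microRNA genes, and the other 6 lie on the opposite strand of DNM1, DNM2, DNM3 and IARS2, which are hosts by position only.

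The hosts spanned a wide range of levels. Per exonic length, the highest in siCtrl libraries were IARS2, SKA2 and ZRANB2, with means of 94.2, 82.2 and 60.4 RPKM (CPM per kilobase of exon, where CPM is the count scaled to the library's TMM-normalised total), and the lowest that were tested were AATK, TENM4 and PDE2A at 0.228, 0.183 and 0.0129 RPKM. A filter on low counts kept 15869 genes and 35 of the 39 hosts. The 4 hosts left out were ARPP21, with 26 reads over all 24 libraries, the cation channel genes TRPM1 and TRPM3, with 3 reads each, and the serotonin receptor gene HTR2C, with 0 reads. ARPP21 had 0 reads in the 6 siSFPQ libraries and 3 in the 3 siCtrl libraries, so no fold is given. PDE2A passed the filter through siSFPQ libraries alone, so its change is given as counts below and its call is not read as a test. In 24 libraries the rows of 26 microRNA genes held 0 reads, 24 held 1 to 26 reads, and only MIR186 and MIR454 held more, with 531 and 137. MIR186, within ZRANB2, had 18, 11 and 25 reads with siSFPQ-2 and 9, 16 and 12 with siSFPQ-3, against 28, 18 and 32 with siCtrl, and was not called (log2 fold change -0.20 ± 0.25, SE, edgeR adjusted p = 0.473). No other microRNA row was tested.

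The siRNAs lowered their targets. SFPQ averaged 208 ± 47.3 CPM with siSFPQ-2 and 222 ± 27.3 CPM with siSFPQ-3, against 1220 ± 40.2 CPM with siCtrl, and NONO averaged 69.2 ± 9.3 and 70.1 ± 5.06 CPM with its siRNAs, against 399 ± 14.9 CPM with siCtrl (SD, n = 3). NEAT1 RNA averaged 297 ± 47 CPM in libraries labelled ASO-NEAT1-1047 and 206 ± 25.4 CPM in those labelled ASO-NEAT1-1473, against 297 ± 85.8 CPM with ASO-Ctrl, and was not called lower (log2 fold change -0.26, edgeR adjusted p = 1.0). In siSFPQ libraries NONO and NEAT1 were called higher than in siCtrl, with log2 fold changes of 0.52 and 1.06, and in siNONO libraries SFPQ was called higher (0.34, adjusted p = 0.011). Total counts ran between 4243196, in an siSFPQ-2 library, and 14886353. Of 24 marker genes, 8 reached a mean of 1 CPM in siCtrl libraries. Of 7 neuroendocrine markers 1, INSM1, had 0 reads over all libraries, and 3 averaged at least 1 CPM with siCtrl and were tested. Of these 3, SYP, the synaptic vesicle protein synaptophysin, averaged 65.9 ± 6.2 CPM with siSFPQ-2 and 37.4 ± 4.2 CPM with siSFPQ-3, against 17.2 ± 3.98 CPM with siCtrl (SD, n = 3), and was called higher, and the other two were called lower. YAP1, a marker of non-neuroendocrine small cell lung cancer, averaged 407 CPM with siCtrl. Of the 12 markers tested, 7 were called higher and 4 lower after SFPQ knockdown, where 34.7% of all genes tested were higher and 35.8% lower. After NONO knockdown 3 markers were higher and 3 lower, against 7.47% and 9.96% of all genes tested. KRT18, LYZ, PECAM1 and COL3A1, counted as higher for SFPQ, passed the filter on low counts through siSFPQ libraries alone and so had to differ. The epithelial markers EPCAM, KRT8 and KRT18 summed to 340 to 488 CPM with siSFPQ and 95.5 to 115 CPM with siCtrl, the fibroblast markers to 12.6 to 22.0 CPM and 11.3 to 16.7 CPM, and the squamous markers to 3.01 to 13.4 CPM and 64.4 to 74.6 CPM. The epithelial sum was almost all KRT8, with means of 418 and 421 CPM with siSFPQ-2 and siSFPQ-3 and 108 CPM with siCtrl. The squamous sum was almost all TP63 and the fibroblast sum mostly COL1A1, so these sums do not show markers moving as a set. Markers of leukocytes summed to at most 2.3 CPM and of endothelium to at most 1.93 CPM with siSFPQ, against at most 0.447 and 0.307 CPM with siCtrl. Their part in the host gene changes was not tested. In such bulk RNA, fewer cells with a transcript and less transcript per cell cannot be told apart.

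After SFPQ knockdown most host genes changed, and more of them fell than rose. Of the 35 hosts tested, 28 were called at an edgeR adjusted p under 0.05, or 80.0%, where 70.4% of all genes tested were called. Lower were 20 hosts, 57.1% against a background of 35.8%, and higher were 8, 22.9% against 34.7%. At least 2-fold lower were 13 hosts, 37.1% against 14.9%, and at least 2-fold higher were 3, AOPEP, PDE2A and VMP1, 8.57% against 17.7%. These counts hold PDE2A, which passed the filter only through siSFPQ libraries and so had to differ. The same holds for the counts of each siSFPQ siRNA and of siSFPQ against siNONO below. The median log2 fold change was -0.38 over the hosts and -0.02 over all genes tested. The list was chosen with earlier results of these data known, so these shares are descriptions and no test. Alone, siSFPQ-2 called 24 hosts (68.6%, against 64.9% of all genes tested) and siSFPQ-3 called 29 (82.9% against 67.0%). Of the 28 hosts, both siRNAs called 24 in the same direction, a count for which no share over all genes was computed. The other 4, CTDSP1, CTDSP2, COPZ2 and GPC1, were called with siSFPQ-3 and not with siSFPQ-2. The plot of log2 fold changes by host sets these beside the NONO and NEAT1 comparisons.

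**Figure D1:**
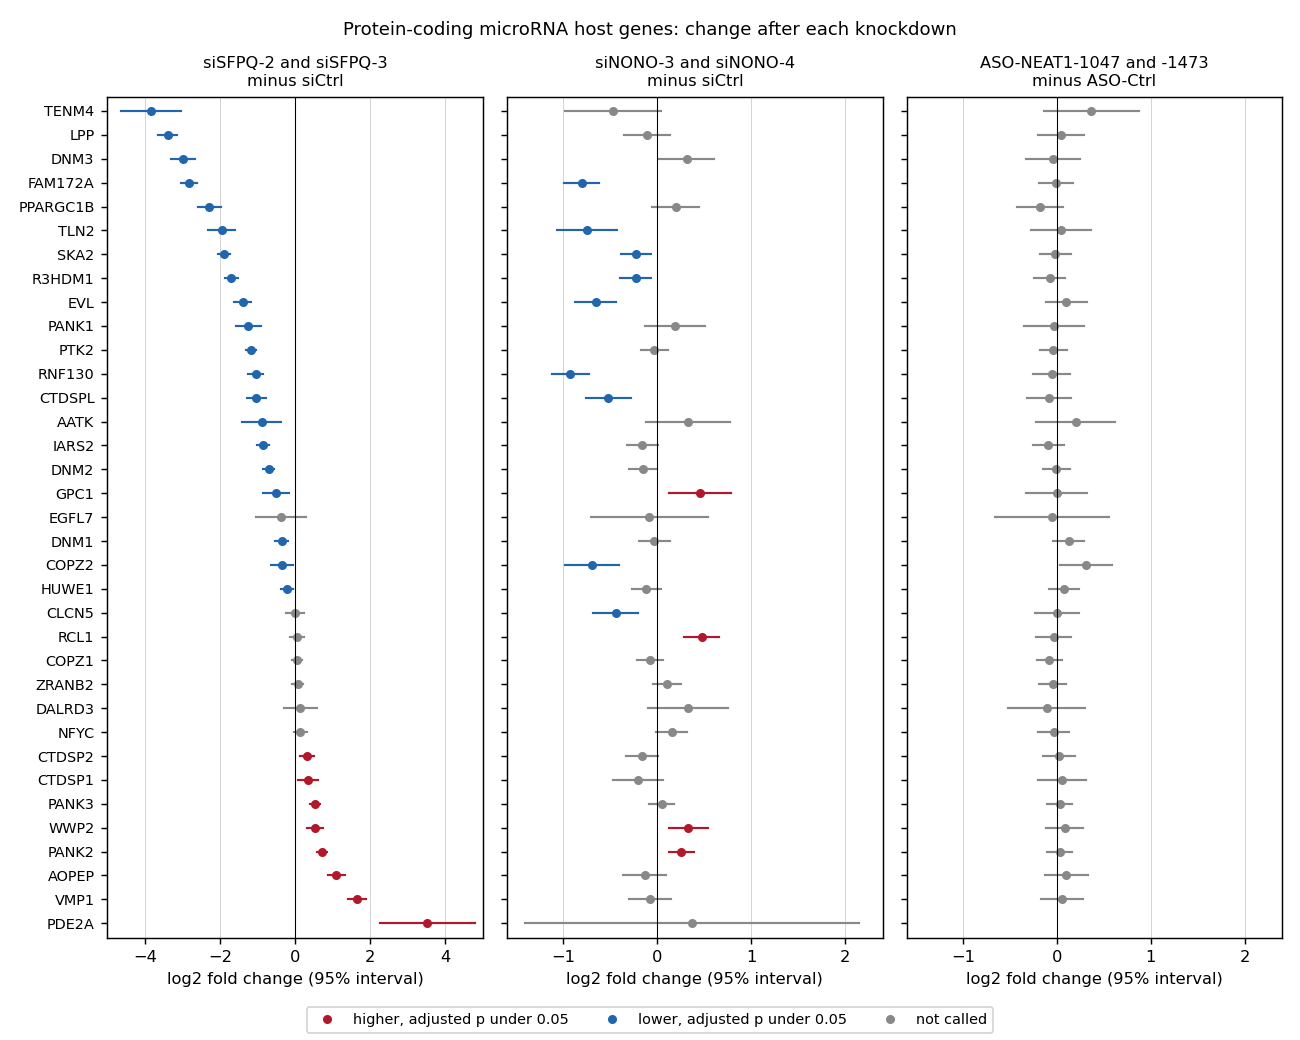
Log2 fold change with its 95% interval for the 35 host genes tested, siSFPQ, siNONO and ASO-NEAT1 libraries each against the control of their arm (3 libraries per reagent), ordered by the SFPQ change. Red and blue mark hosts called higher and lower, and the SFPQ axis is wider than the others. PDE2A is coloured as called higher for SFPQ, but the filter kept it only through siSFPQ libraries, so this is no test. SFPQ changes run between -3.84 (TENM4) and 3.52 (PDE2A, from 55 reads with siSFPQ and 3 with siCtrl), NONO changes between -0.92 and 0.47, and no host was called in the NEAT1 panel, where PDE2A is not drawn because its ASO libraries held almost no reads.

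LPP, TLN2, EVL and PTK2, whose products act in adhesion and on the actin cytoskeleton, all fell. LPP, a LIM-domain protein of focal adhesions (chr3:188153284-188890671 of hg38, plus strand, 737 kb), had 42.97, 44.1 and 27.6 CPM in the siSFPQ-2 libraries and 27.2, 33.8 and 29.8 CPM in the siSFPQ-3 libraries, against 342, 374 and 341 CPM in the siCtrl libraries. Its siSFPQ libraries all lay far below every siCtrl library, at 9.57% of the siCtrl level (log2 fold change -3.39 ± 0.12, SE, edgeR adjusted p = 9.41e-17). TLN2, which codes for talin 2, a link between integrins and actin (chr15:62390526-62844631, plus strand, 454 kb), had 6.91, 5.7 and 3.99 CPM in the siSFPQ-2 libraries and 5.73, 4.3 and 2.53 CPM in the siSFPQ-3 libraries, against 19.8, 17.8 and 17.8 CPM in the siCtrl libraries. The groups did not overlap, and TLN2 fell to 25.9% of siCtrl (-1.95 ± 0.17, adjusted p = 1.22e-10). EVL, an Ena/VASP family regulator of actin filaments (chr14:99971449-100144236, plus strand, 173 kb), had 15.3, 9.18 and 10.2 CPM in the siSFPQ-2 libraries and 14.9, 13.1 and 14.1 CPM in the siSFPQ-3 libraries, against 33.9, 30.9 and 36.6 CPM in the siCtrl libraries. Every siSFPQ library was again lower than every siCtrl library (log2 fold change -1.40 ± 0.11, adjusted p = 1.67e-11). PTK2, the gene of focal adhesion kinase and the host of miR-151a, spans 344 kb and had 159.8, 154 and 122 CPM in the siSFPQ-2 libraries and 156, 163 and 150.0 CPM in the siSFPQ-3 libraries, against 328, 341 and 349.5 CPM in the siCtrl libraries. It was thereby at 44.3% of siCtrl, with no overlap of the groups (log2 fold change -1.17 ± 0.07, adjusted p = 1.38e-14).

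The largest fitted fall was that of TENM4, a teneurin, a transmembrane protein of neural development (chr11:78652829-79441030, minus strand, 788 kb), but its level was low. TENM4 had 0.128, 0 and 0.629 CPM in the siSFPQ-2 libraries and 0.119, 0.123 and 0.12 CPM in the siSFPQ-3 libraries, against 4.02, 2.35 and 2.62 CPM in the siCtrl libraries. That is 10 reads in 6 siSFPQ libraries, against 104 reads in 3 siCtrl libraries, a ratio of counts scaled to depth of 0.0722 with an exact 95% counting interval of 0.0336 to 0.138. The fitted log2 fold change was -3.84 ± 0.38 (adjusted p = 1.08e-09), and without siSFPQ-2 replicate 3, which holds the highest siSFPQ value, it was -4.75 (adjusted p = 2.2e-10, and at most 3.65e-08 over all alternatives). GPC1, a glypican, a cell surface proteoglycan that carries heparan sulfate, had 15.2, 9.92 and 11.9 CPM in the siSFPQ-2 libraries and 8.83, 6.63 and 6.63 CPM in the siSFPQ-3 libraries, against 14.6, 11.8 and 14.3 CPM in the siCtrl libraries. Here only the siSFPQ-3 libraries lay wholly below siCtrl, and the siSFPQ-2 libraries overlapped with it (log2 fold change of the mean -0.50 ± 0.17, adjusted p = 0.0103).

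In the dynamin family, whose GTPases pinch vesicles off membranes, the fall differed in size between paralogs. DNM3 (chr1:171841498-172418466, plus strand, 577 kb) had 19.2, 13.1 and 10.5 CPM in the siSFPQ-2 libraries and 14.7, 14.4 and 6.38 CPM in the siSFPQ-3 libraries, against 95.2, 107 and 105 CPM in the siCtrl libraries. It was at 12.7% of siCtrl with well separated groups (log2 fold change -2.98 ± 0.15, adjusted p = 1.94e-13). DNM2, the dynamin of most cell types (115 kb), had 55.4, 47.1 and 59.1 CPM in the siSFPQ-2 libraries and 57.5, 47.5 and 57.1 CPM in the siSFPQ-3 libraries, against 82.4, 90.2 and 92.5 CPM in the siCtrl libraries. DNM1, best known from synapses (63.6 kb), had 57.03, 51.3 and 48.05 CPM in the siSFPQ-2 libraries and 62.8, 63.8 and 56.1 CPM in the siSFPQ-3 libraries, against 72.6, 68.7 and 75.8 CPM in the siCtrl libraries. Both were lower without overlap, DNM2 by a log2 fold change of -0.71 ± 0.07 (adjusted p = 1.55e-09) and DNM1 of -0.36 ± 0.08 (adjusted p = 0.000264). Reads of DNM3 per read of DNM2 were 0.346, 0.279 and 0.178 with siSFPQ-2 and 0.255, 0.302 and 0.112 with siSFPQ-3, against 1.16, 1.18 and 1.14 with siCtrl. Such a ratio within a library does not depend on the scaling, and it was lower in each of the 6 siSFPQ libraries than in any siCtrl library.

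The listed microRNAs of the dynamin loci, miR-199 and miR-214, are read from the strand opposite to the dynamin mRNA. For miR-199a-2 and miR-214 within DNM3 the count files hold the antisense RNA DNM3OS (chr1:172138397-172144840, minus strand), which carries both and shares no exonic bases with DNM3. DNM3OS had 63.9, 69.9 and 45.2 CPM with siSFPQ-2 and 43.2, 55.9 and 39.8 CPM with siSFPQ-3, against 125, 104 and 117 CPM with siCtrl. It fell with no overlap of the groups (log2 fold change -1.14 ± 0.12, adjusted p = 9.59e-09), so the rows of both strands were lower after SFPQ knockdown. Whether counting used the strand is not given in the sources used here, and without it reads of the DNM3 and DNM3OS transcripts cannot be told apart within DNM3OS.

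VMP1, COPZ1, COPZ2 and CLCN5 code for proteins of internal membranes, and they did not move together. VMP1, an endoplasmic reticulum protein needed to form autophagosomes and the host of miR-21 in an exon (chr17:59707192-59842255, plus strand, 135 kb), had 289, 333 and 265 CPM in the siSFPQ-2 libraries and 341, 419 and 291 CPM in the siSFPQ-3 libraries, against 102, 113 and 92.02 CPM in the siCtrl libraries. All 6 siSFPQ libraries lay more than 2-fold above the highest siCtrl library, at 315% of siCtrl on average (log2 fold change 1.66 ± 0.11, adjusted p = 2.57e-12). VMP1 shares 1.46% of its exonic length with PTRH2 on the other strand, which was not called (log2 fold change -0.19, adjusted p = 0.0594). COPZ1 and COPZ2 code for alternative zeta subunits of the COPI coat of Golgi vesicles. COPZ1 had 159.5, 160.0 and 172 CPM in the siSFPQ-2 libraries and 146, 139.9 and 135 CPM in the siSFPQ-3 libraries, against 143, 152 and 146 CPM in the siCtrl libraries. The groups overlapped and COPZ1 was not called (0.05 ± 0.07, 95% interval -0.09 to 0.18, adjusted p = 0.562). COPZ2 had 6.65, 6.94 and 6.29 CPM in the siSFPQ-2 libraries and 5.49, 7.12 and 5.78 CPM in the siSFPQ-3 libraries, against 8.49, 7.67 and 8.01 CPM in the siCtrl libraries. It was below siCtrl in every siSFPQ library and was called lower (-0.34 ± 0.14, adjusted p = 0.0332), but the call was lost when any of 4 libraries was left out (siCtrl replicate 1 or 3, siSFPQ-2 replicate 3 or siSFPQ-3 replicate 1; adjusted p 0.0559 to 0.0918), and DESeq2 gave an adjusted p of 0.0989. CLCN5, an endosomal chloride-proton exchanger that hosts 6 of the listed microRNA genes, had 40.9, 31.2 and 35.1 CPM in the siSFPQ-2 libraries and 49.6, 62.1 and 45.7 CPM in the siSFPQ-3 libraries, against 44.7, 42.7 and 43.1 CPM in the siCtrl libraries. The siSFPQ-2 libraries lay below siCtrl and the siSFPQ-3 libraries above it, and the mean was not called (-0.00 ± 0.12, interval -0.24 to 0.24, adjusted p = 0.997).

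The hosts of miR-26 code for small phosphatases of the RNA polymerase II C-terminal domain, and they moved in opposite directions. CTDSPL (chr3:37861880-37984469, plus strand, 123 kb) had 18.4, 16.6 and 14.3 CPM in the siSFPQ-2 libraries and 19.2, 20.99 and 19.03 CPM in the siSFPQ-3 libraries, against 38.5, 37.2 and 34.4 CPM in the siCtrl libraries. It was lower without overlap (log2 fold change -1.03 ± 0.12, adjusted p = 2.13e-08). CTDSP2 (chr12:57819927-57846729, minus strand, 26.8 kb) had 227, 203 and 229 CPM in the siSFPQ-2 libraries and 259, 249 and 277 CPM in the siSFPQ-3 libraries, against 177, 189 and 211 CPM in the siCtrl libraries. On average it was higher (0.32 ± 0.09, adjusted p = 0.0017), although the lowest siSFPQ-2 library lay below the highest siCtrl library. CTDSP1 (chr2:218398256-218405941, plus strand, 7.7 kb) had 28.5, 19.1 and 31.8 CPM in the siSFPQ-2 libraries and 28.4, 29.6 and 36.3 CPM in the siSFPQ-3 libraries, against 22.3, 19.5 and 26.7 CPM in the siCtrl libraries. Its siSFPQ-2 libraries overlapped with siCtrl, and its rise (0.35 ± 0.13, adjusted p = 0.0194) was not called without siCtrl replicate 1 or 2, siSFPQ-2 replicate 3 or siSFPQ-3 replicate 3 (adjusted p 0.07 to 0.128). Reads of CTDSPL per read of CTDSP2 were 0.0811, 0.0819 and 0.0622 with siSFPQ-2 and 0.0741, 0.0844 and 0.0686 with siSFPQ-3, against 0.217, 0.197 and 0.163 with siCtrl. The ratio was thus lower in each of the 6 siSFPQ libraries than in any siCtrl library.

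The hosts of miR-107 and miR-103a code for pantothenate kinases, which catalyse the first step of coenzyme A synthesis, and they too were split. PANK1 (chr10:89582988-89645418, minus strand, 62.4 kb) had 23.5, 25.6 and 18.1 CPM in the siSFPQ-2 libraries and 16.4, 18.2 and 14.1 CPM in the siSFPQ-3 libraries, against 53.6, 43.7 and 37.1 CPM in the siCtrl libraries. With no overlap of the groups it fell to 42.2% of siCtrl (-1.24 ± 0.16, adjusted p = 4.39e-07). PANK2 (chr20:3888839-3929887, plus strand, 41 kb) had 81.3, 88.3 and 94.8 CPM in the siSFPQ-2 libraries and 91.4, 97.6 and 106 CPM in the siSFPQ-3 libraries, against 55.9, 56.2 and 59.1 CPM in the siCtrl libraries. PANK3 (chr5:168548495-168579368, minus strand, 30.9 kb) had 333, 353 and 386 CPM in the siSFPQ-2 libraries and 360.5, 376 and 371 CPM in the siSFPQ-3 libraries, against 249, 256 and 254 CPM in the siCtrl libraries. Each siSFPQ library was above each siCtrl library for both genes, with log2 fold changes of 0.70 ± 0.07 for PANK2 (adjusted p = 2.41e-10) and 0.52 ± 0.07 for PANK3 (adjusted p = 8.73e-08). PANK2 shares 28.3% of its exonic length with RNF24 on the opposite strand, which was itself higher after SFPQ knockdown (log2 fold change 1.23, adjusted p = 6.57e-06), and its rise is uncertain where counting did not use strand. Reads of PANK1 per read of PANK3 were 0.0707, 0.0724 and 0.047 with siSFPQ-2 and 0.0453, 0.0484 and 0.038 with siSFPQ-3, against 0.215, 0.17 and 0.146 with siCtrl. In the families of miR-26 and of miR-107 and miR-103a hosts, the paralog with the longest span fell and the shorter ones rose. The CTDSP1 rise depended on single libraries. Other families differed. DNM1, DNM2 and DNM3 all fell, and COPZ2 (11.9 kb) was called lower while the longer COPZ1 (50.6 kb) was not called.

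**Figure D2:**
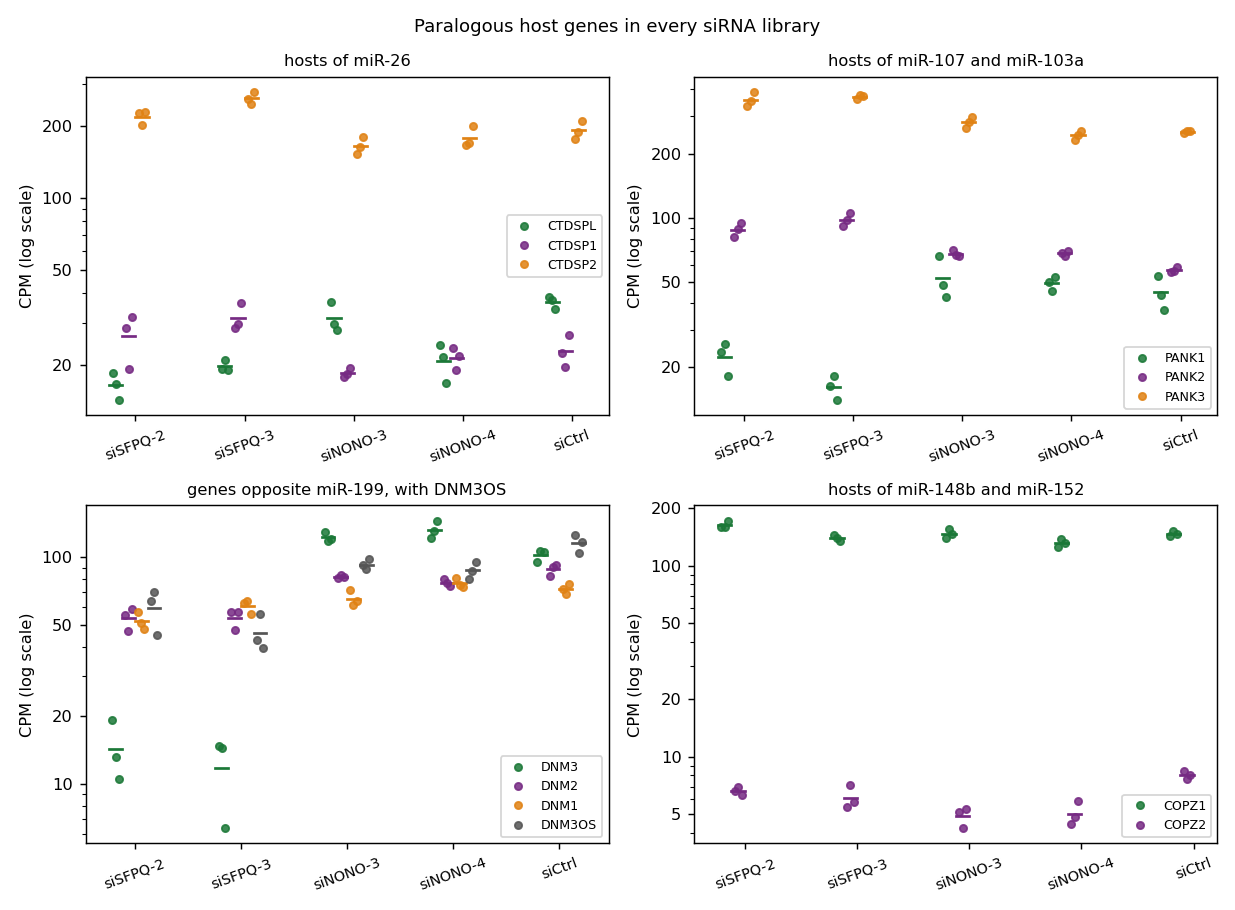
CPM on a log scale in every siRNA library for the paralogous hosts of miR-26, of miR-107 and miR-103a, of miR-199 (with DNM3OS) and of miR-148b and miR-152; points are libraries and bars are group means (n = 3). With siSFPQ, CTDSPL lies below and CTDSP2 mostly above its siCtrl values, PANK1 lies below and PANK2 and PANK3 above theirs, and DNM3 is between 6.38 and 19.2 CPM, against 95.2 to 107 CPM with siCtrl.

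SKA2, R3HDM1 and PPARGC1B, with products in mitosis, RNA binding and transcription, all fell at least 2-fold. SKA2, a subunit of the SKA complex that holds kinetochores on spindle microtubules and the host of both miR-301a and miR-454 (chr17:59109857-59155260, minus strand, 45.4 kb), had 69.05, 68.5 and 47.8 CPM in the siSFPQ-2 libraries and 90.5, 76.2 and 85.3 CPM in the siSFPQ-3 libraries, against 274, 261 and 262 CPM in the siCtrl libraries. It was the most abundant host per length among those that fell at least 2-fold, and was at 27% of siCtrl with no overlap (log2 fold change -1.89 ± 0.08, adjusted p = 1.02e-17). PRR11, which starts beside SKA2 on the opposite strand, was also lower (log2 fold change -1.82, adjusted p = 2.99e-16). MIR454 in its intron had too few reads to be tested, 0 to 8 per siSFPQ library and 4 to 7 per siCtrl library. R3HDM1, which codes for a protein with an R3H domain, a fold that binds single-stranded nucleic acid (chr2:135531455-135725270, plus strand, 194 kb), had 45.3, 44.1 and 40.4 CPM in the siSFPQ-2 libraries and 38.7, 40.1 and 35.5 CPM in the siSFPQ-3 libraries, against 134, 136 and 125 CPM in the siCtrl libraries. Groups were apart (-1.70 ± 0.08, adjusted p = 3.05e-16), and its partner in carrying miR-128, ARPP21, was near absent in all libraries. PPARGC1B, a transcriptional coactivator of mitochondrial and oxidative metabolism genes with miR-378a near its start, 2.5 kb into its 125 kb (chr5:149730298-149855022, plus strand), had 5.24, 2.73 and 3.36 CPM in the siSFPQ-2 libraries and 2.98, 2.58 and 2.77 CPM in the siSFPQ-3 libraries, against 17.2, 16.97 and 14.1 CPM in the siCtrl libraries. All siSFPQ values were under 6 CPM and all siCtrl values over 14 CPM, so that PPARGC1B was at 20.6% of siCtrl (-2.28 ± 0.15, adjusted p = 9.43e-14).

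FAM172A, with miR-2277 in an exon close to its 3′ end (chr5:93617725-94111699, minus strand, 494 kb), had 7.42, 7.69 and 5.56 CPM in the siSFPQ-2 libraries and 5.49, 6.26 and 4.82 CPM in the siSFPQ-3 libraries, against 43.5, 41.8 and 43.4 CPM in the siCtrl libraries. It was at 14.2% of siCtrl, and the highest siSFPQ library was more than 5-fold under the lowest siCtrl library (-2.81 ± 0.10, adjusted p = 8.14e-19). RNF130, a membrane-bound RING-type ubiquitin ligase with miR-340 (chr5:179911651-180072113, minus strand, 160.5 kb), had 24.7, 21.8 and 18.4 CPM in the siSFPQ-2 libraries and 21.1, 21.1 and 20.8 CPM in the siSFPQ-3 libraries, against 51.5, 40.5 and 40.4 CPM in the siCtrl libraries. The siSFPQ libraries were all lower (-1.05 ± 0.10, adjusted p = 3.17e-10). WWP2, a HECT-type ubiquitin ligase that carries miR-140, known for its part in cartilage (chr16:69762328-69941741, plus strand, 179 kb), had 33.8, 30.5 and 32.6 CPM in the siSFPQ-2 libraries and 25.6, 24.3 and 29.03 CPM in the siSFPQ-3 libraries, against 20.9, 18.1 and 21.4 CPM in the siCtrl libraries. This ligase went the other way, with every siSFPQ library above every siCtrl library (0.53 ± 0.10, adjusted p = 3.21e-05).

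The other large rises were those of AOPEP and PDE2A. AOPEP, a member of the aminopeptidase family whose 3′ end carries miR-23b, miR-27b and miR-24-1 (chr9:94726699-95087159, plus strand, 360.5 kb), had 23.1, 20.8 and 19.6 CPM in the siSFPQ-2 libraries and 29.2, 30.4 and 28.1 CPM in the siSFPQ-3 libraries, against 11.5, 12.6 and 10.9 CPM in the siCtrl libraries. It was higher in all 6 siSFPQ libraries (1.10 ± 0.11, adjusted p = 1.21e-09) and was the 1 host over 300 kb that rose. PDE2A, a phosphodiesterase that breaks down cyclic AMP and cyclic GMP, with miR-139 (chr11:72576141-72674591, minus strand, 98.5 kb), had 0.511, 0.992 and 1.05 CPM in the siSFPQ-2 libraries and 1.79, 0.982 and 1.69 CPM in the siSFPQ-3 libraries, against 0, 0.204 and 0.0729 CPM in the siCtrl libraries. Its libraries held 55 reads with siSFPQ and 3 with siCtrl, a ratio of counts scaled to depth of 13.8 with an exact 95% counting interval of 4.47 to 68.8. Of the 3 siCtrl reads, 2 are in replicate 2. The filter kept PDE2A only through the group where it is high, so neither the ratio nor its fitted change and call is a test of the rise.

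**Figure D3:**
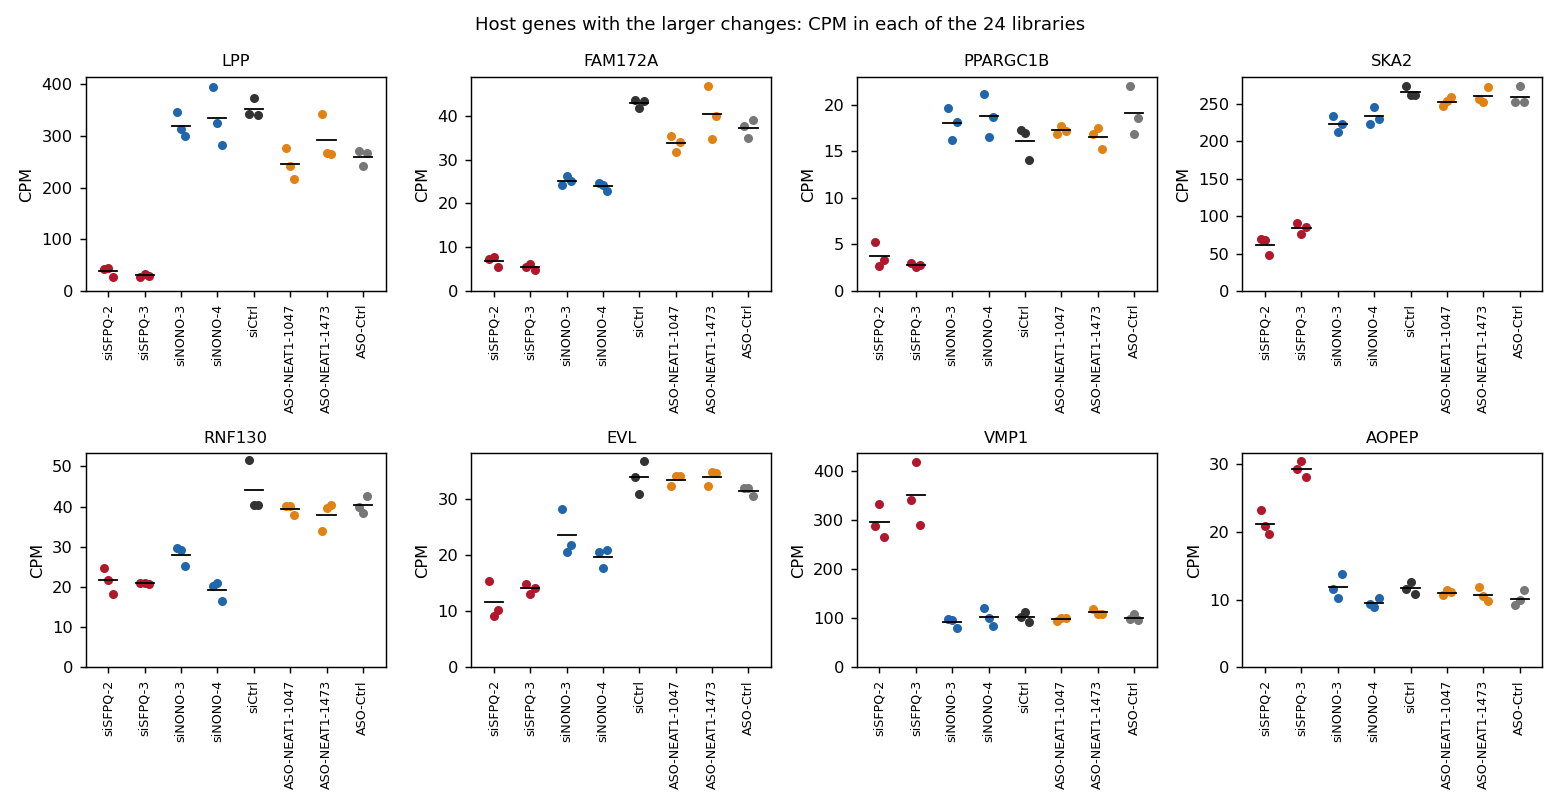
CPM on linear axes in each of the 24 libraries for 8 host genes; points are libraries, bars are group means (n = 3), and each gene has its own axis starting at 0. LPP, FAM172A, PPARGC1B, SKA2, RNF130 and EVL lie lower, and VMP1 and AOPEP higher, in both siSFPQ groups than in siCtrl, while the ASO-NEAT1 and ASO-Ctrl libraries overlap for each of these genes except EVL, which was not called there.

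Smaller changes completed the SFPQ comparison. IARS2, the mitochondrial isoleucyl-tRNA synthetase, was at 55.3% of siCtrl (log2 fold change -0.85 ± 0.08, adjusted p = 1.80e-10), with 177 to 240 CPM in siSFPQ libraries and 359 to 406 CPM in siCtrl libraries. AATK, a kinase named for apoptosis, was lower at low levels, 0.744 to 2.1 CPM with siSFPQ and 2.45 to 3.35 CPM with siCtrl (-0.89 ± 0.25, adjusted p = 0.00232); it shares 13.2% of its exonic length with BAIAP2 on the opposite strand, which was called higher (log2 fold change 0.73, adjusted p = 6.67e-05). HUWE1, a very large HECT-type ubiquitin ligase with let-7f-2 and miR-98, changed little (-0.21 ± 0.08, adjusted p = 0.018), and the call was lost without siCtrl replicate 2 or 3 (adjusted p = 0.0773 and 0.0642). Not called were 7 of the 35 hosts. NFYC, a subunit of the CCAAT-binding factor NF-Y, had a log2 fold change of 0.14 (95% interval -0.03 to 0.31), ZRANB2, a zinc finger protein of splicing, 0.07 (-0.08 to 0.22), RCL1, a factor of ribosomal RNA processing, 0.04 (-0.15 to 0.23), and DALRD3, which shares 12.6% of its exonic length with WDR6 on the opposite strand, 0.14 (-0.30 to 0.58). EGFL7, a protein secreted by endothelium, had a log2 fold change of -0.38, with an interval of -1.04 to 0.28 that is wide at 0.992 to 4.23 CPM per library. COPZ1 and CLCN5, given above, are the others.

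Falls were more frequent among hosts with longer spans. Of the 7 tested hosts over 300 kb, 6 fell (TENM4, LPP, DNM3, FAM172A, TLN2 and PTK2) and AOPEP rose, with a median log2 fold change of -2.81. Among all 539 genes tested in that span class, 60.5% fell, 24.3% rose and the median was -0.94. Between 100 and 300 kb, 7 of 10 hosts fell and 2 rose, with a median of -0.87, where 39.8% of the genes of that class fell, 38.4% rose and their median was -0.04. For spans of 30 to 100 kb, 6 of 12 hosts fell and 3 rose, PDE2A among them (median -0.16, against 32.5% lower, 40.5% higher and a median of 0.09 for all genes of the class). Up to 30 kb, 1 of 6 hosts fell and 2 rose (median 0.10, against 35.0% lower, 31.0% higher and a median of -0.06). Spearman's rho between log2 fold change and span was -0.49 over the 35 hosts, and -0.02 over the 15869 genes tested. For exonic length in place of span rho was -0.30, for the distance between the host start and its nearest microRNA -0.22, and for the mean CPM in siCtrl -0.08. The hosts share libraries and are not independent, so these values are descriptions. SKA2, at 45.4 kb, and PPARGC1B, at 125 kb, had the largest falls among the hosts of their span classes.

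**Figure D4:**
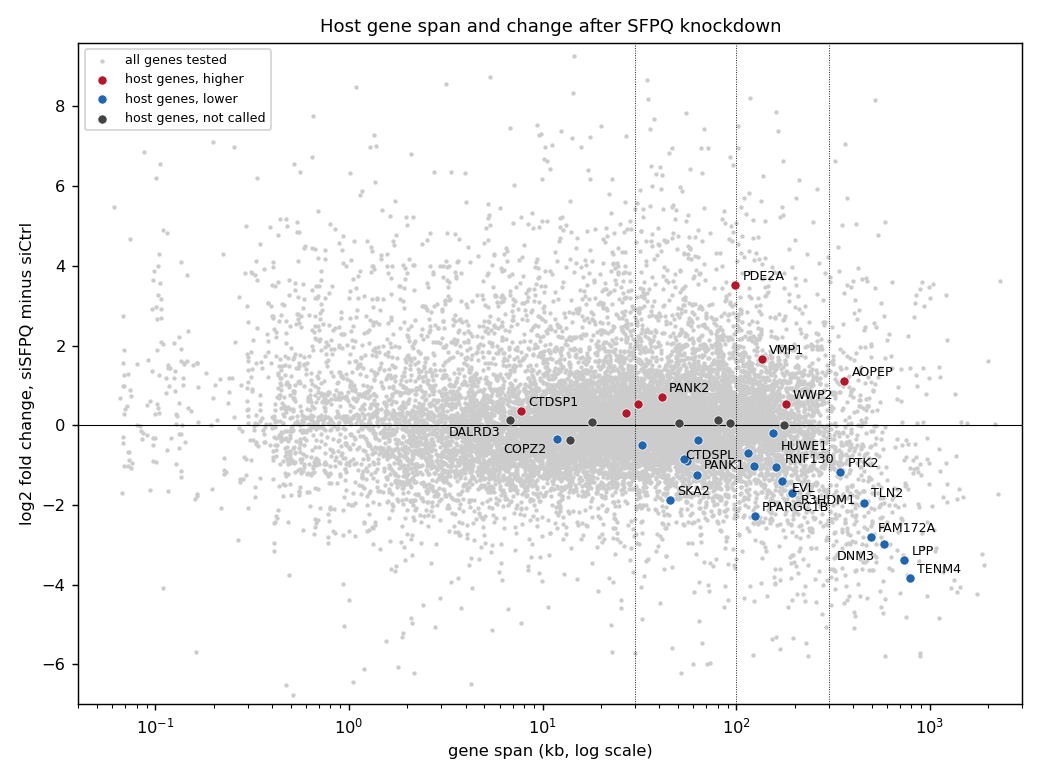
Log2 fold change of siSFPQ over siCtrl against gene span in kb on a log scale, for all 15869 genes tested (grey) and the 35 host genes (coloured by call). Named are hosts with a change of at least 2-fold and WWP2, COPZ2, DALRD3, CTDSP1, HUWE1 and PANK2. Dotted lines mark 30, 100 and 300 kb. Of the 7 hosts over 300 kb, AOPEP lies above 0 and the other 6 lie between -1.17 and -3.84.

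NONO knockdown changed fewer hosts, none of them 2-fold, where 1.6% of all genes were at least 2-fold higher and 1.66% at least 2-fold lower. Called were 13 of 35 hosts, 37.1%, against 17.4% of all genes tested. Lower were 9 hosts (25.7% against a background of 9.96%) and higher were 4 (11.4% against 7.47%), and the median log2 fold change was -0.08 over hosts and -0.00 over all genes tested. Alone, siNONO-3 called 14 hosts (40.0%, against 19.9% of all genes tested) and siNONO-4 called 9 (25.7% against 11.0%). Of the 13 hosts, both reagents called 8 in the same direction, a count for which no share over all genes was computed. Same-numbered libraries of these groups deviated together, and with the replicate number as a block 4 hosts were higher and 11 lower, adding CTDSP2 (adjusted p = 0.0438) and IARS2 (adjusted p = 0.0407) to the lower ones, while 12% of all genes were higher and 14.8% lower. The largest fall was that of the ubiquitin ligase gene RNF130, with 29.6, 29.3 and 25.2 CPM with siNONO-3 and 20.3, 20.9 and 16.6 CPM with siNONO-4, against 51.5, 40.5 and 40.4 CPM with siCtrl. All 6 siNONO libraries were lower, those of siNONO-4 more so (-0.92 ± 0.10, adjusted p = 1.26e-07). FAM172A had 24.3, 26.2 and 25.1 CPM with siNONO-3 and 24.6, 24.2 and 22.9 CPM with siNONO-4, against 43.5, 41.8 and 43.4 CPM with siCtrl, well apart from each other (-0.81 ± 0.09, adjusted p = 3.93e-07). The talin gene TLN2 had 13.8, 10.6 and 11.4 CPM with siNONO-3 and 13.3, 9.54 and 7.39 CPM with siNONO-4, against 19.8, 17.8 and 17.8 CPM with siCtrl. It was lower without overlap (-0.75 ± 0.16, adjusted p = 0.00127), as was the actin regulator EVL, with 28.2, 20.6 and 21.7 CPM with siNONO-3 and 20.5, 17.6 and 20.8 CPM with siNONO-4, against 33.9, 30.9 and 36.6 CPM with siCtrl (-0.65 ± 0.11, adjusted p = 8.77e-05).

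COPZ2, the coat subunit gene with miR-152, had 5.13, 4.25 and 5.31 CPM with siNONO-3 and 4.46, 4.83 and 5.85 CPM with siNONO-4, against 8.49, 7.67 and 8.01 CPM with siCtrl. It was lower in every siNONO library (-0.70 ± 0.14, adjusted p = 0.000867). CLCN5 had 35.3, 28.98 and 33.2 CPM with siNONO-3 and 34.5, 33.9 and 26.1 CPM with siNONO-4, against 44.7, 42.7 and 43.1 CPM with siCtrl, also without overlap (-0.44 ± 0.12, adjusted p = 0.00785). The phosphatase gene CTDSPL had 36.5, 29.7 and 28.1 CPM with siNONO-3 and 24.1, 21.6 and 16.7 CPM with siNONO-4, against 38.5, 37.2 and 34.4 CPM with siCtrl. Only the siNONO-4 libraries lay wholly below siCtrl, and the mean was called (-0.52 ± 0.12, adjusted p = 0.00238). R3HDM1, with 117, 105 and 97.7 CPM with siNONO-3 and 121, 116 and 118 CPM with siNONO-4, against 134, 136 and 125 CPM with siCtrl, and SKA2, with 233, 212 and 223 CPM with siNONO-3 and 224, 246 and 230.1 CPM with siNONO-4, against 274, 261 and 262 CPM with siCtrl, were lower by small margins. Their log2 fold changes were -0.23 ± 0.08 (adjusted p = 0.0479) and -0.22 ± 0.08 (adjusted p = 0.0482). Leaving out 1 library at a time ended the call in 17 of 24 omissions for R3HDM1 and in 16 for SKA2, with adjusted p up to 0.185 and 0.191. Some of these omissions were of ASO or siSFPQ libraries, outside the comparison, and hardly changed the estimates. Any omission let more genes pass the filter (16275 to 16395, in place of 15869), so an adjusted p can change with little change of the estimate.

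Of the hosts that rose after NONO knockdown, RCL1, with miR-101-2, had 23.7, 23.4 and 25.1 CPM with siNONO-3 and 25.7, 22.3 and 22.4 CPM with siNONO-4, against 18.5, 16.97 and 16.03 CPM with siCtrl. Its siNONO libraries all lay above siCtrl (0.47 ± 0.09, adjusted p = 0.000511). PANK2 had 70.6, 67.2 and 66.3 CPM with siNONO-3 and 68.4, 66.4 and 70.2 CPM with siNONO-4, against 55.9, 56.2 and 59.1 CPM with siCtrl, also without overlap (0.26 ± 0.06, adjusted p = 0.00616), and was not called with no filter on low counts (adjusted p = 0.106). WWP2 had 27.3, 26.1 and 31.1 CPM with siNONO-3 and 24.97, 20.5 and 23.2 CPM with siNONO-4, against 20.9, 18.1 and 21.4 CPM with siCtrl. All siNONO-3 libraries lay above siCtrl, and those of siNONO-4 overlapped with it. The rise (0.33 ± 0.10, adjusted p = 0.019) was not called without siCtrl replicate 2 or siNONO-3 replicate 3 (adjusted p = 0.126 and 0.0547). The glypican gene GPC1 had 24.2, 17.9 and 22.8 CPM with siNONO-3 and 20.6, 12.8 and 14.7 CPM with siNONO-4, against 14.6, 11.8 and 14.3 CPM with siCtrl, with overlap, and its call (0.46 ± 0.16, adjusted p = 0.0497) was lost in 15 of 24 omissions of 1 library (adjusted p up to 0.206). Several hosts with large SFPQ changes were not called after NONO knockdown. LPP had 346, 313 and 299.8 CPM with siNONO-3 and 395, 326 and 283 CPM with siNONO-4, against 342, 374 and 341 CPM with siCtrl, with overlapping groups (-0.11 ± 0.12, adjusted p = 0.584). VMP1 had 98.3, 95.96 and 80.3 CPM with siNONO-3 and 120.5, 101 and 84.4 CPM with siNONO-4, against 102, 113 and 92.02 CPM with siCtrl, also with overlap (-0.08 ± 0.11, adjusted p = 0.675). DNM3 had 129, 118 and 120.0 CPM with siNONO-3 and 122, 131 and 145 CPM with siNONO-4, against 95.2, 107 and 105 CPM with siCtrl, all above siCtrl, and its adjusted p of 0.131 missed the threshold (0.31 ± 0.14); without siSFPQ-3 replicate 3 it was called (0.31, adjusted p = 0.0292). DNM3OS was lower (log2 fold change -0.36 ± 0.12, adjusted p = 0.0375), at 91.9, 88.5 and 97.7 CPM with siNONO-3 and 80.2, 86.8 and 95 CPM with siNONO-4.

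The SFPQ and NONO comparisons share the siCtrl libraries, so their difference was tested directly. Of 35 hosts, 29 differed between siSFPQ and siNONO libraries, 82.9% against 75.4% of all genes tested, with 18 lower (51.4% against 38.4%) and 11 higher (31.4% against 37.0%) with siSFPQ. LPP was lower with siSFPQ than with siNONO, with a log2 difference of -3.28 ± 0.11 (adjusted p = 1.56e-17), as were DNM3, with -3.29 ± 0.14 (adjusted p = 3.09e-15) and PPARGC1B, with -2.48 ± 0.13 (adjusted p = 5.21e-16). VMP1 was higher with siSFPQ by 1.73 ± 0.09 (adjusted p = 4.06e-15). RNF130 fell in both comparisons, and its difference of -0.13 had a 95% interval of -0.31 to 0.05 and was not called (adjusted p = 0.189). COPZ2 was the host called lower in both that had the larger fall with siNONO, a difference of 0.35 ± 0.13 (adjusted p = 0.0144), which was not called without siNONO-4 replicate 1 or siSFPQ-3 replicate 2 (adjusted p = 0.0514 and 0.0621). GPC1 was lower with siSFPQ and higher with siNONO than with siCtrl, and differed between them by -0.96 ± 0.14 (adjusted p = 7.54e-07).

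In the libraries labelled ASO-NEAT1 no host was called, and neither was any of the 15869 genes tested (0.0%). At an unadjusted p under 0.05 there were 1 host and 353 genes, 2.22% of those tested, and DESeq2 called 0 hosts. That host was COPZ2, with 7.63, 8.54 and 8.02 CPM with ASO-NEAT1-1047 and 11.6, 9.97 and 10.99 CPM with ASO-NEAT1-1473, against 6.52, 9.28 and 6.64 CPM with ASO-Ctrl. Only the libraries of ASO-NEAT1-1473 lay above all ASO-Ctrl libraries (0.31 ± 0.14, adjusted p = 1). LPP, the host with the largest well-measured fall after SFPQ knockdown, had 276, 242 and 218 CPM with ASO-NEAT1-1047 and 342, 268 and 265 CPM with ASO-NEAT1-1473, against 271, 242 and 268 CPM with ASO-Ctrl. The 95% interval of its log2 fold change was -0.21 to 0.29, and those of DNM3 and VMP1 were -0.33 to 0.24 and -0.17 to 0.27. EVL had 32.2, 33.96 and 33.96 CPM with ASO-NEAT1-1047 and 32.3, 34.7 and 34.5 CPM with ASO-NEAT1-1473, against 31.9, 31.8 and 30.5 CPM with ASO-Ctrl. Its groups did not overlap, but the difference was small and was not called (0.10 ± 0.11, 95% interval -0.12 to 0.32, adjusted p = 1). Because NEAT1 RNA itself was not called lower in these libraries, the comparison bears on the ASOs as labelled. Between the controls, ASO-Ctrl and siCtrl, 0 hosts and 72 genes (0.454%) were called.

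A further list of 25 protein-coding microRNA hosts was set beside the members, and 17 of them passed the filter. This list too was chosen with earlier results of these data known, so it is no independent check. After SFPQ knockdown 10 were called lower and 4 higher, where 35.8% of all genes tested were lower and 34.7% higher, and their median log2 fold change was -0.53, against -0.02 over all genes. The largest falls were those of GRID1, a glutamate receptor subunit gene of 767.2 kb, with a mean of 0.473 CPM with siSFPQ-2 and 0.282 CPM with siSFPQ-3, against 4.95 CPM with siCtrl (-3.79 ± 0.33, adjusted p = 5.51e-11), and of FGF13, an intracellular fibroblast growth factor homologue of 608.1 kb (-3.01 ± 0.17, adjusted p = 1.03e-14). The largest rises were those of LARP7, an RNA-binding protein that holds the noncoding RNA 7SK (0.72 ± 0.09, adjusted p = 3.62e-08), and SREBF1, a transcription factor of lipid synthesis (0.38 ± 0.12, adjusted p = 0.00494). After NONO knockdown, with 9.96% of all genes lower and 7.47% higher, 3 of the 17 were called lower, GRID1 (log2 fold change -0.81, adjusted p = 0.0132), the imprinted gene MEST (-0.48, adjusted p = 5.48e-05) and SREBF2, a transcription factor of cholesterol synthesis (-0.28, adjusted p = 0.00673). CALCR, the calcitonin receptor gene, was called higher (0.84, adjusted p = 0.00146). In the ASO-NEAT1 libraries 0 of the 17 were called.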

How the data were processed

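RNA-seq read counts per gene were analysed for all 24 libraries. Per the submitters' processing notes, reads were trimmed with cutadapt 4.2, aligned to hg38 with STAR 2.7.5a and counted with Subread featureCounts 2.0.3, which the file headers also name; their notes list DESeq2 1.38.1. The deposited values are raw counts per gene as the authors made them, and per the file headers each gene has its exon coordinates and exonic length. Strand setting, treatment of multi-mapping reads and annotation release were not given in the labels or headers read here. Poly(A) selection leaves RNA with no poly(A) tail largely unmeasured. Genes with at least 10 counts in 3 libraries (0.991 CPM) and 15 in total were kept. Counts were scaled by TMM (factors 0.949 to 1.045) and fitted in 1 edgeR 4.0.16 quasi-likelihood model (R 4.3.3) over the 8 groups, with contrasts of the mean of both reagents against their control. P-values were Benjamini-Hochberg adjusted over 15869 genes, and a call needs an adjusted p under 0.05. Totals of 4243196 to 14886353 set the counting precision, and no molecular identifiers are recorded. Intervals of count ratios cover counting error only. Those of fitted log2 fold changes also cover the spread among libraries of a group. The fitting was checked on simulated counts in which few genes changed and every gene had the same spread. That check does not cover changes as wide as those after SFPQ knockdown.

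The members and lists were chosen with earlier results of these data known. Given with every library's value are hosts changed at least 2-fold after SFPQ knockdown and called with both siRNAs, hosts called after NONO knockdown, and paralogs that share a microRNA family; other hosts are given by range, and of the further list the 2 largest rises and 2 largest falls for SFPQ. PRR11 and the further hosts called for NONO were named after their values were seen. Alternatives were RLE and upper quartile factors, no filter, DESeq2 1.42.0, the libraries of each arm alone, a stricter threshold, exonic length in place of span, omission of each library and a replicate block. Replicate numbers pair the ASO libraries, where all 9 same-number pairs deviated together (r 0.131 to 0.428), and the block changed no call of a host there. They also pair the siNONO and siCtrl libraries, where all 9 such pairs did (r 0.114 to 0.329). Same-number pairs of siSFPQ-2 and siCtrl had r of 0.147, 0.152 and 0.278, and those of siSFPQ-3 and siCtrl 0.011, 0.016 and 0.191. Replicates did not agree within sampling noise, and all were kept. Sequences are from RefSeq (GRCh38.p14) and were read with pandas 2.3.3 in Python 3.11.15; intervals of count ratios used scipy 1.17.1. The level of 1 marker gene is not reported here.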

Additional observations from a re-analysis of the deposited data

Results flagged for a closer look

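The effect of the 2 siRNAs against the same target differed, by a test of the difference itself, in 8 values of hosts. Between siSFPQ-2 and siSFPQ-3, 4 of 35 hosts differed at an edgeR adjusted p under 0.05, 11.4%, against 14.7% of all genes tested. GPC1 was higher with siSFPQ-2 with a log2 difference of 0.768 ± 0.216 (SE, adjusted p = 0.0152), and this was not called without siSFPQ-2 replicate 1 (adjusted p = 0.109) or siSFPQ-3 replicate 2 or 3 (adjusted p = 0.0648 and 0.0653). CLCN5 was lower with siSFPQ-2, a difference of -0.54 (adjusted p = 0.0083, and 0.0814 without siSFPQ-3 replicate 2). AOPEP was lower with siSFPQ-2 by a difference of -0.464 (adjusted p = 0.00937, and 0.0753 without siSFPQ-2 replicate 3), as was SKA2 by a difference of -0.457 (adjusted p = 0.00199). AOPEP rose and SKA2 fell with both siRNAs, while GPC1 was called with siSFPQ-3 alone.

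Between siNONO-3 and siNONO-4, 4 of 35 hosts differed, 11.4%, against 10.0% of all genes tested. All 4 were higher with siNONO-3, where 4.71% of all genes were higher and 5.31% lower. The total is near the share over all genes, so the shared direction of 4 hosts is not read as a trait of the hosts. The log2 differences were 0.594 for CTDSPL (adjusted p = 0.00623), 0.538 for RNF130 (adjusted p = 0.00362), 0.285 for PTK2 (adjusted p = 0.0208) and 0.259 for ZRANB2 (adjusted p = 0.0419). The CTDSPL difference was not called without siNONO-3 replicate 1 or siNONO-4 replicate 3 (adjusted p = 0.064 and 0.0716), that of PTK2 in 4 of 24 omissions of 1 library (adjusted p up to 0.131) and that of ZRANB2 in 19 (adjusted p up to 0.236). With the replicate number as a block, which pairs these libraries, the same 4 hosts differed along with PANK3, WWP2, DNM1 and GPC1, 8 in all, where 17.2% of all genes were called.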

How the results depend on the processing

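Counts of called hosts stayed within 1.5 times the reported value in the SFPQ, NEAT1 and SFPQ minus NONO comparisons under all alternatives. For NONO, hosts called higher numbered 2 at an adjusted p under 0.01 and 2 with no filter on low counts, against 4 as reported. The share over all genes tested was 3.96% and 2.53% in these settings, against 7.47% as reported. Above 0.01 lay WWP2 (edgeR adjusted p = 0.019) and GPC1 (0.0497). With no filter the adjustment ran over 38046 genes, and PANK2 (0.106) and WWP2 (0.0866) lost the call. The cause of the loss with no filter was not tested. Leaving out 1 library gave 2 to 4 hosts higher for NONO, against 4.42% to 7.71% of all genes. The lowest count came without siCtrl replicate 2 or siNONO-3 replicate 3. Omissions gave 7 to 8 higher and 18 to 20 lower for SFPQ. Over all genes 32.2% to 34.6% were then higher and 32.7% to 36.7% lower. For NONO they gave 7 to 9 lower, against 5.73% to 10.4% of all genes. For SFPQ minus NONO they gave 9 to 11 higher and 18 to 19 lower, against 35.5% to 37.5% and 36.5% to 39%. For NEAT1 they gave 0 hosts, against at most 0.116% of all genes. Spearman's rho between the SFPQ change and length was -0.30 with exonic length in place of the span, against -0.49 with the span. Among values of named hosts, 854 of 868 kept their side of the threshold for SFPQ, and 14 lost the call. For NONO 805 of 868 kept it, 61 lost the call and 2 gained it. No called value reversed. Some uncalled values changed sign between settings, as did RCL1 for SFPQ, with log2 fold changes of -0.022 to 0.088. With the replicate block the counts were 8 higher and 20 lower for SFPQ, against 36.3% and 37.5% of all genes. For NONO they were 4 higher and 11 lower, against 12% and 14.8%, or 26.9% in either direction. CTDSP2 (edgeR adjusted p = 0.0438) and IARS2 (adjusted p = 0.0407) were added there. For SFPQ minus NONO the counts were 11 higher and 18 lower, against 38.2% and 39.6%. For NEAT1 0 hosts and 0 genes were called. Of all 30 same-number pairs of siRNA libraries, 20 had a correlation over 0.1. Those of siSFPQ-2 with siCtrl were among them, while pairs with siSFPQ-3 reached as low as -0.04. DNM3 was called higher for NONO without siSFPQ-3 replicate 3, a library outside that comparison (adjusted p = 0.0292). NONO calls of R3HDM1, SKA2, GPC1 and WWP2 and SFPQ calls of COPZ2, CTDSP1 and HUWE1 lie near the threshold, and depth limits TENM4, PDE2A and the microRNA rows.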
